A study of Mus musculus with 15 samples.

Results

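The genes described are 8 genes of Schwann cells and their myelin, chosen by symbol as Mbp, Pmp22, Prx, Sox10, Egr2, Erbb3, Mag and Cdh19 out of 23420 mouse genes in the deposited table. They were followed in tongue and epidermis of newborn mice at postnatal day 1, with 4 libraries of knockout tongue, 4 of wild-type tongue, 4 of knockout epidermis and 3 of wild-type epidermis. Knockout pups carry the genotype label Tmprss11a,b,c,d,e,f,g-/-, that is, the cluster of HAT/DESC serine protease genes of surface epithelia was targeted, and wild-type pups carry the label wildtype with the same strain field. The labels name no other allele and no treatment of the pups. Of the 7 targeted genes 6 were in the table. Their summed level was 134 to 148 CPM (normalised read count, scaled to library size with TMM factors) in knockout tongue and 340.5 to 381.5 in wild-type tongue, and 109 to 243 in knockout epidermis and 245.5 to 312 in wild-type epidermis. By its A-number, a label read here as the name of an animal, each library belongs to 1 of 9 animals, 6 of which gave both tissues.

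Schwann cells are the glia of peripheral nerves. Sox10 specifies the lineage, neuregulin from axons keeps it alive and drives it through the ErbB2 and ErbB3 receptors, and the transcription factor Egr2 (Krox20), which Pou3f1 (Oct6) precedes, switches on myelin genes as a cell wraps an axon. In mouse nerves myelination starts around birth. The tongue is a muscle crossed by cranial nerve branches, whereas the epidermis, freed from dermis, holds no myelinated nerve and is reached by bare axon endings. Several of the genes also serve other cells: Sox10 works in melanocytes, Erbb3 in many epithelia and in melanocytes, Pmp22 in epithelia and fibroblasts, and the Mbp locus gives the Golli transcripts outside glia, which gene-level counts do not separate from those of myelin.

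Counted reads ran from 10117819 to 17819195 a library, so that 3 counts were worth 0.157 to 0.34 CPM. Ribosomal RNA of mitochondria (mt-Rnr1 with mt-Rnr2) held 35.5% to 40.8% of counts in tongue and 20.1% to 23.8% in 6 of the 7 epidermis libraries. The remaining one, wild-type epidermis library 1, stood apart at 44.6%. That library and the first library of each other group have A-numbers in the 320s, written A32x here, and the labels do not say what such a range stands for. In bulk tissue, fewer cells of a type and less RNA per cell cannot be told apart. Tissue markers followed the labels. Skeletal muscle genes summed to 28637 CPM or more in each tongue library and to 699 or less in each epidermis library. Epidermal keratinocyte genes summed to 1138 CPM or less in tongue and to 29206 or more in epidermis. Fibroblast genes summed to 462 to 892 CPM in the epidermis libraries, and carry-over of deeper tissue into them was not tested.

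Promoter sequences of 3 of the genes are shown to give the regulatory letters beside the measurements. Prx and Egr2 are shown because Egr2 drives myelination and periaxin belongs to myelin-forming cells, and Pmp22 was added after its values were seen, as the gene with the widest tissue difference. Each window is the 250 bases before a RefSeq start site on GRCm38.p6, on the plus strand, at chr7:27499074-27499323 for Prx, chr10:67537619-67537868 for Egr2 and chr11:63128732-63128981 for Pmp22. The Egr2 window lies in an intron of longer Egr2 transcripts of GENCODE M21, and the other windows end just before the annotated start of the gene. Capitals mark matches to a POU octamer, ATGCAAAT, or to an EGR site, GCGTGGG.
Prx: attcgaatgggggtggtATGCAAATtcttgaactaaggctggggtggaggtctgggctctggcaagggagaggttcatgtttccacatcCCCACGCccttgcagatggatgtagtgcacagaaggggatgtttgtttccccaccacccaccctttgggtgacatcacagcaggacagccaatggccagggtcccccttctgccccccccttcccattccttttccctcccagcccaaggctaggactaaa
Egr2: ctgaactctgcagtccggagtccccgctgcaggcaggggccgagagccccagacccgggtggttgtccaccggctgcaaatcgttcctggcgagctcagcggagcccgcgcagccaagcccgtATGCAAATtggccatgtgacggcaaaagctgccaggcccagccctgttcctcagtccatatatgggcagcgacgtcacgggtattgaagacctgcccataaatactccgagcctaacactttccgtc
Pmp22: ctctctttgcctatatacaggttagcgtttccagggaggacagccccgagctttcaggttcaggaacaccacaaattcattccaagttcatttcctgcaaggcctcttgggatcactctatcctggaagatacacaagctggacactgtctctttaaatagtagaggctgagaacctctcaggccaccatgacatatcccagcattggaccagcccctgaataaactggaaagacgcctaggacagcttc
The searched letters were ATGCAAAT (POU), GCGTGGG and GTGGGAG (EGR), ACAAAG and AACAAT (SOX) and TATAAA, on both strands. The Prx window held the octamer at -233 and GCGTGGG on the minus strand at -161, and the Egr2 window held the octamer at -127, counted from the start site to the first base of the match. No 2 matches overlapped. Of 32817 RefSeq windows of this length, 1.6% held ATGCAAAT, 4.31% GCGTGGG, 8.25% GTGGGAG, 16.5% ACAAAG, 9.42% AACAAT and 12.4% TATAAA. The Pmp22 window held none of these letters. A match is a description of letters and was not tested as a site. Mag had 3 windows, none of which is shown, and Mbp, Sox10, Erbb3 and Cdh19 are named without sequence.

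The widest contrast was between the tissues, and it split the genes. Cdh19 and Pmp22 were higher in tongue, Erbb3, Egr2 and Mbp were lower in tongue, Sox10 stood at about the same low level in both tissues, and Mag was at the limit of detection. Prx was higher in tongue of knockout pups. Of the 8 genes 7 passed the filter on low counts in each comparison and Mag did not. In knockout pups 3 were higher and 3 lower in tongue than in epidermis (edgeR quasi-likelihood test, Benjamini-Hochberg adjusted p under 0.05), against a background of 63.8% of 16398 tested genes called, 31.1% higher and 32.7% lower. In wild-type pups 2 were higher and 3 lower, against 63.6% of 16577 tested genes, 31.6% higher and 32% lower. With 6 and 5 of 7 genes called, the count is near these backgrounds, and the sizes and directions of the single genes are what follows. The median log2 fold change, tongue over epidermis, was 0.19 over the 7 genes in knockout pups (-0.07 over all genes) and -0.10 in wild-type pups (-0.03 over all genes).

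**Figure D1:**
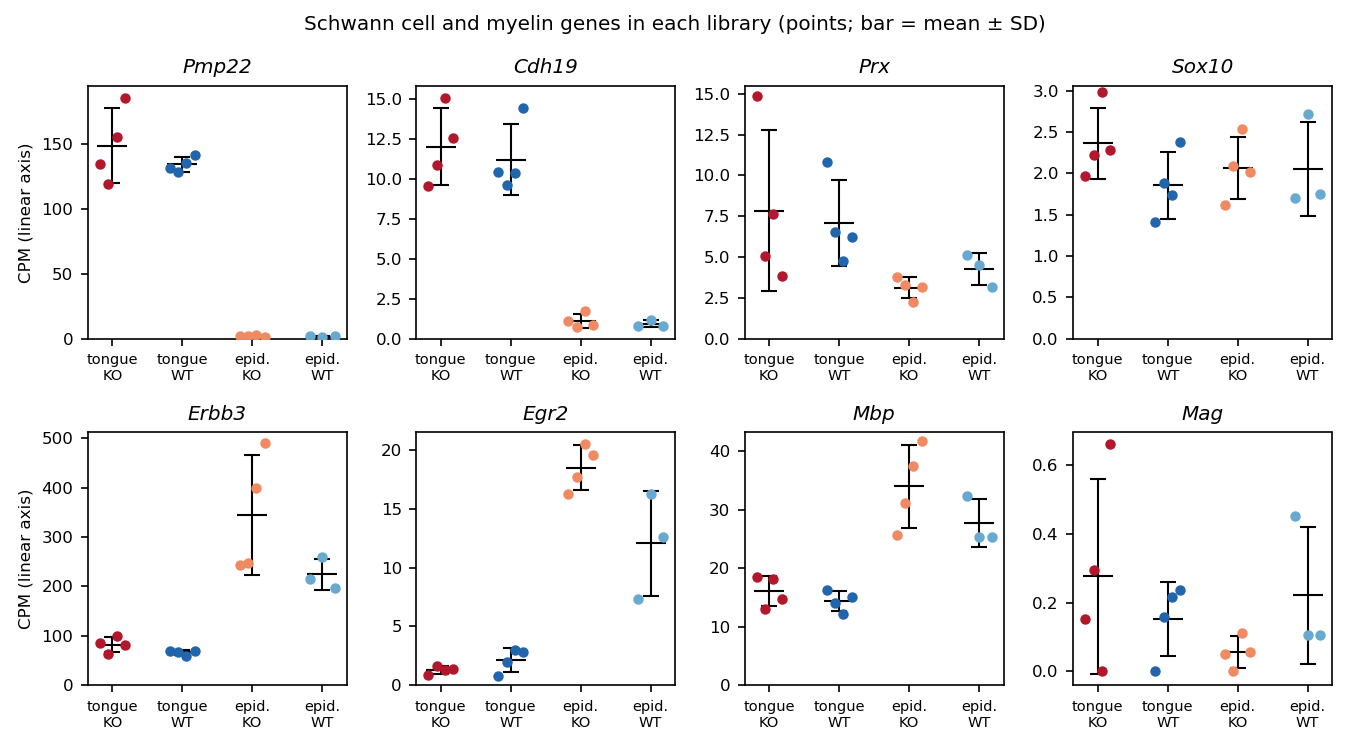
CPM of the 8 genes in each library on linear axes, each panel with its own scale. Points are libraries, and bars are group means ± SD (n = 4, 4, 4 and 3 from left to right). Pmp22 lies at 119 CPM or more in tongue and at 2.49 or less in epidermis, while Erbb3 and Egr2 show the opposite order and Sox10 overlaps in the 4 groups.

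Sox10, the transcription factor that defines the Schwann lineage, lies at chr15:79154908-79165240 on the minus strand (GENCODE M21, GRCm38, as for the coordinates below). It had 1.97, 2.22, 2.98 and 2.29 CPM in knockout tongue and 1.41, 1.89, 1.74 and 2.39 CPM in wild-type tongue. In epidermis it had 1.62, 2.09, 2.54 and 2.02 CPM in knockouts and 1.70, 2.72 and 1.75 CPM in wild types. The 4 groups overlapped. Tongue over epidermis, the log2 fold change was 0.19 in knockout pups (95% interval -0.40 to 0.78, adjusted p = 0.552, edgeR) and -0.10 in wild-type pups (-0.80 to 0.60, adjusted p = 0.791). The like Sox10 level stood beside different surroundings. Melanocyte genes summed to 21.4 to 37.8 CPM in knockout tongue and 22.1 to 27.8 in wild-type tongue, with Tyr, the enzyme that starts melanin synthesis, at 0 in each tongue library. They summed to 106 to 190 CPM in knockout epidermis and 72.7 to 135 in wild-type epidermis. Of the 8 melanocyte genes, 6 were lower in tongue in both genotypes and none was higher, while Kit and Mitf did not pass. The part of melanocyte RNA in the epidermal Sox10 level was not tested.

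Egr2, the master regulator of myelination, lies at chr10:67535475-67542188 on the plus strand. Its level was 0.834, 1.63, 1.29 and 1.39 CPM in knockout tongue and 0.754, 1.97, 2.97 and 2.78 CPM in wild-type tongue. Epidermis held 16.2, 17.7, 20.5 and 19.6 CPM in knockouts and 7.36, 16.2 and 12.6 CPM in wild types. Each epidermis library was above each tongue library. Tongue was lower by a log2 fold change of -3.83 in knockout pups (SE 0.23, adjusted p = 6.26e-08, edgeR) and -2.44 in wild-type pups (SE 0.41, adjusted p = 6.98e-04). Egr2 is also an immediate early gene, one that stimulation turns on within minutes. Of the 10 immediate early genes listed, 7 were lower and 1 higher in tongue in knockout pups, and 5 lower and 2 higher in wild-type pups. Egr3, a relative of Egr2, had 0.0602 to 0.531 CPM in knockout tongue and 0.283 to 0.708 in wild-type tongue, against 10.3 to 29.1 in knockout epidermis and 11.6 to 24.45 in wild-type epidermis. Whether the handling of the tissues moved these genes was not tested.

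Pou3f1, the factor that acts just before Egr2 in Schwann cells and is also known from keratinocytes, had the same order as Egr2. Its level was 0.227 to 1.48 CPM in knockout tongue and 0.189 to 1.03 in wild-type tongue, against 19.9 to 32.7 in knockout epidermis and 13.1 to 33.6 in wild-type epidermis. The log2 fold change, tongue over epidermis, was -4.63 in knockout pups (adjusted p = 6.39e-07, edgeR) and -5.11 in wild-type pups (adjusted p = 1.16e-05). Among the 9 transcription factors of the Schwann lineage that were tested, 2 were higher and 7 lower in knockout tongue than in knockout epidermis, and 2 higher and 4 lower in wild-type tongue than in wild-type epidermis. The 2 higher were the same pair in both genotypes. Zeb2, a repressor that lets Schwann cells mature, was 3.30 and 3.34 log2 units higher in tongue in knockout and wild-type pups, and Nfatc4, a partner of Sox10 at Egr2, 2.88 and 2.99. Tead1, which binds Schwann cell enhancers and works in many cells, was lower in tongue at log2 fold changes of -0.66 and -0.77.

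Erbb3, the neuregulin receptor of Schwann cells, lies at chr10:128567523-128589652 on the minus strand. It had 84.5, 62.97, 99.1 and 80.7 CPM in knockout tongue and 69.97, 66.7, 59.6 and 69.4 CPM in wild-type tongue. Epidermis held 243, 247, 400.3 and 490.4 CPM in knockouts and 215, 259.9 and 198 CPM in wild types. Each epidermis library was above each tongue library. Tongue was lower by a log2 fold change of -2.07 in knockout pups (SE 0.25, adjusted p = 1.72e-05, edgeR) and -1.71 in wild-type pups (SE 0.15, adjusted p = 8.86e-06). Of the CPM summed over the 8 genes, Erbb3 held 84.4% in knockout epidermis and 82.1% in wild-type epidermis, but 30.2% in knockout tongue and 27.96% in wild-type tongue. The sum over the 8 genes thus follows mainly Erbb3 in epidermis and Pmp22 in tongue.

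The co-receptor Erbb2 moved with Erbb3. It was lower in tongue by a log2 fold change of -2.32 in knockout pups (adjusted p = 1.90e-06, edgeR) and -2.24 in wild-type pups (adjusted p = 5.88e-06). Erbb4, the neuregulin receptor of heart and neurons, went the other way, with log2 fold changes of 3.62 and 3.68. Of the 11 tested genes of neuregulin and laminin signalling, 7 were higher and 3 lower in knockout tongue, and 7 higher and 2 lower in wild-type tongue. Lama2, the laminin chain of Schwann cell and muscle basement membranes, had 422 to 571 CPM in knockout tongue and 369 to 514 in wild-type tongue, against 3.12 to 9.01 in knockout epidermis and 2.45 to 8.15 in wild-type epidermis. Lama4 was 4.76 and 5.02 log2 units higher in tongue, and the laminin receptor chain Itgb1 2.37 and 2.60, in knockout and wild-type pups. Nrg1, the ligand itself, had 6.29 to 10.04 CPM in knockout tongue and 6.37 to 9.43 in wild-type tongue, against 1.15 to 14.5 in knockout epidermis and 2.04 to 7.88 in wild-type epidermis, and did not pass in either genotype (adjusted p = 0.752 and 0.181, edgeR).

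Cdh19, a cadherin of Schwann cell precursors, lies at chr1:110888326-110977584 on the minus strand. It had 9.55, 10.9, 15.1 and 12.6 CPM in knockout tongue and 10.5, 9.595, 10.4 and 14.5 CPM in wild-type tongue. In epidermis it had 1.10, 0.724, 1.75 and 0.865 CPM in knockouts and 0.793, 1.17 and 0.794 CPM in wild types. The tissues did not overlap. The log2 fold change, tongue over epidermis, was 3.41 in knockout pups (SE 0.29, adjusted p = 1.10e-06, edgeR) and 3.63 in wild-type pups (SE 0.27, adjusted p = 3.91e-06). Unlike Erbb3 and Egr2, Cdh19 had the order of most listed lineage genes. Of 12 Schwann lineage and precursor genes tested in knockout pups 11 were higher in tongue and 1 lower, and of 11 tested in wild-type pups 10 were higher and 1 lower. The median log2 fold change was 3.98 in knockout pups and 4.35 in wild-type pups (4.32 with S100b at its bound). The gene that was lower in both genotypes was Tfap2a, which keratinocytes also use, with log2 fold changes of -3.25 and -3.32. Medians of other cell types in knockout and wild-type pups were higher for fibroblast (4.45 and 5.02), endothelium (6.32 and 6.57) and skeletal muscle genes (7.54 and 8.43). Macrophage genes had lower medians, at 0.50 and 0.74. The part of cells other than Schwann cells in the levels of the lineage genes was not tested.

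S100b, the calcium-binding protein used to stain Schwann cells, had 2.58 to 4.52 CPM in knockout tongue and 2.595 to 5.29 in wild-type tongue, against 0.0805 CPM or less in knockout epidermis and 0 in the 3 wild-type epidermis libraries. Against a floor of 3 counts a library, S100b was at least 20-fold higher in wild-type tongue than in wild-type epidermis. Sox8, a relative of Sox10, was 5.55 and 4.65 log2 units higher in tongue in knockout and wild-type pups. Sox8 had 5, 1, 2 and 0 counts in knockout epidermis and 11, 1 and 1 counts in wild-type epidermis. Most of these lie under the floor of 3 counts, so the size of its fold is uncertain. Matn2, a matrix protein of nerves, was 5.05 and 5.11 log2 units higher in tongue in knockout and wild-type pups. Of 10 genes of immature and repair Schwann cells tested in each genotype, 6 were higher and 4 lower in tongue. The higher ones included Ngfr, the p75 neurotrophin receptor, at log2 fold changes of 4.60 in knockout pups and 4.63 in wild-type pups, and Sox2, an inhibitor of myelination, at 4.18 and 4.24. Shh and Notch1, which hair follicles and keratinocytes use, were among the 4 lower ones in both genotypes. For the higher ones too, the part of cells other than Schwann cells was not tested. Axon and neuron genes were also mostly higher in tongue, 6 higher and 1 lower of 8 tested in knockout pups and 8 higher and 1 lower of 9 in wild-type pups. Their summed CPM went the other way, at 73.4 to 84.5 in knockout tongue and 69.8 to 83.6 in wild-type tongue. In epidermis the sum was 156 to 367 CPM in knockouts and 223 to 278 CPM in wild types. Such a sum follows its most abundant genes, and Map2 had the highest group mean of the listed axon and neuron genes in epidermis. The part of cells other than neurons in the sum was not tested. Gap43, of growing axons, had 5.47 to 8.95 CPM in knockout tongue and 9.44 to 11.5 in wild-type tongue, against 0.241 CPM or less in knockout epidermis and 0.2645 or less in wild-type epidermis.

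Pmp22, a tetraspan protein of compact myelin whose gene dosage decides inherited neuropathies, lies at chr11:63128982-63159547 on the plus strand. It had 134, 119, 156 and 185.5 CPM in knockout tongue and 131.5, 128, 136 and 142 CPM in wild-type tongue. Epidermis held 1.57, 1.77, 2.49 and 1.15 CPM in knockouts and 1.70, 0.852 and 1.59 CPM in wild types. No epidermis library came near a tongue library. The log2 fold change, tongue over epidermis, was 6.41 in knockout pups (SE 0.26, adjusted p = 6.58e-09, edgeR) and 6.69 in wild-type pups (SE 0.26, adjusted p = 1.15e-07), or 85.2-fold and 103-fold. Of the CPM summed over the 8 genes, Pmp22 held 54.9% in knockout tongue and 56.6% in wild-type tongue. Fibroblast genes, of a cell type that also makes Pmp22, summed to 7495 to 8324 CPM in knockout tongue and 6866 to 8217 in wild-type tongue, against 678 to 892 in knockout epidermis and 462 to 789.9 in wild-type epidermis. The part of cells other than Schwann cells in the Pmp22 level was not tested.

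Mbp, the basic protein that compacts the myelin membrane, lies at chr18:82475146-82585637 on the plus strand. It had 18.4, 13.02, 18.1 and 14.8 CPM in knockout tongue and 16.3, 14.1, 12.2 and 15.02 CPM in wild-type tongue. Epidermis held 25.7, 31.1, 37.5 and 41.7 CPM in knockouts and 32.4, 25.4 and 25.3 CPM in wild types. Each epidermis library was above each tongue library. Tongue was lower by a log2 fold change of -1.07 in knockout pups (SE 0.19, adjusted p = 3.70e-04, edgeR) and -0.90 in wild-type pups (SE 0.17, adjusted p = 0.00124). Myelin and Golli transcripts of the Mbp locus share exons and were counted as 1 gene, so the transcript behind these levels was not analysed here.

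The other genes analysed that were listed as compact myelin differed in direction between the tissues. Mal, a raft protein of myelin and epithelia, had 24.0 to 27.2 CPM in knockout tongue and 17.5 to 32.3 in wild-type tongue, against 0.805 to 2.77 in knockout epidermis and 1.65 to 2.91 in wild-type epidermis. Its log2 fold change, tongue over epidermis, was 3.55 in knockout pups (adjusted p = 7.09e-07, edgeR) and 3.46 in wild-type pups (adjusted p = 8.25e-06). Of the compact myelin genes other than the 8 members, 2 were higher and 1 lower of 3 tested in knockout pups, and 2 higher and none lower of 4 tested in wild-type pups. Mal was among the higher ones in both genotypes, beside Mpzl1 in knockout pups (0.64) and Cmtm5 in wild-type pups (3.89). Mpzl1 was present in both tissues, at 19.7 to 35.2 CPM in knockout tongue and 14.4 to 16.8 in knockout epidermis. Cmtm5 had 0, 1 and 2 counts in wild-type epidermis, under the floor of 3 counts, so the size of its fold is uncertain. The lower one was Cd9, a tetraspanin of many cells, at a log2 fold change of -0.72 in knockout pups, and its value in wild-type pups was -0.24 (adjusted p = 0.439, edgeR). The medians over these few listed genes were 0.64 in knockout pups and 1.93 in wild-type pups. The part of cells other than Schwann cells in their levels was not tested.

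**Figure D2:**
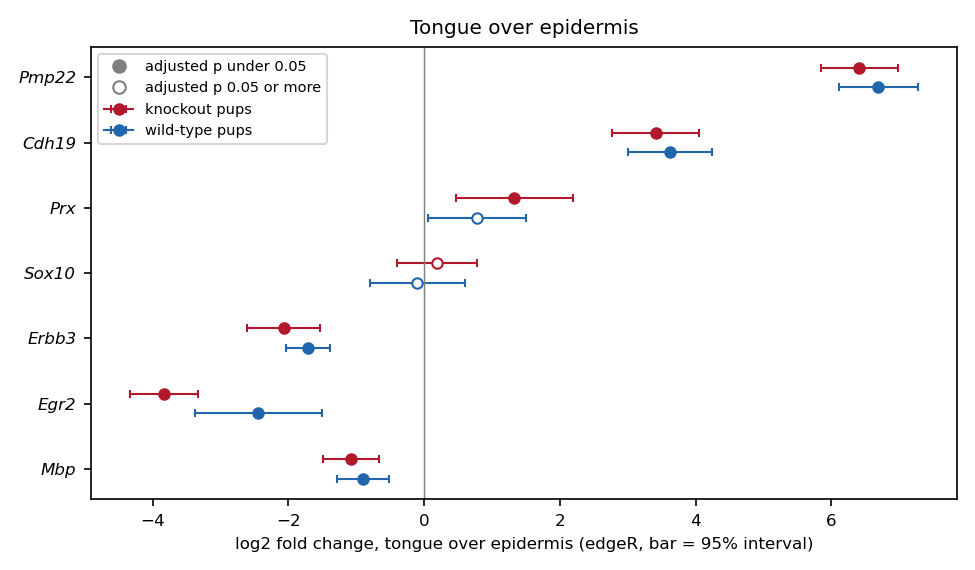
Log2 fold change of tongue over epidermis for the 7 genes that passed the low-count filter, in knockout pups (red, upper point of each pair) and wild-type pups (blue, lower point). Bars are 95% intervals of the edgeR fit and filled points have an adjusted p under 0.05. Pmp22 and Cdh19 lie right of 0 and Erbb3, Egr2 and Mbp left of 0 in both genotypes.

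Most enzymes of myelin lipids were lower in tongue, the direction of Mbp, Erbb3 and Egr2. Of 12 tested, 1 was higher and 8 lower in knockout tongue than in knockout epidermis, and 1 higher and 9 lower in wild-type tongue than in wild-type epidermis. The higher one was Cers2, which makes very long-chain ceramides, at log2 fold changes of 1.84 and 1.68. Elovl1, which lengthens fatty acids and also serves the skin barrier, was lower in tongue at log2 fold changes of -3.64 and -3.36. Fa2h, which hydroxylates the fatty acids of myelin and skin lipids, had 0.0994 CPM or less in knockout tongue and 0.159 or less in wild-type tongue, against 0.981 to 9.14 in knockout epidermis and 2.17 to 5.89 in wild-type epidermis.

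**Figure D3:**
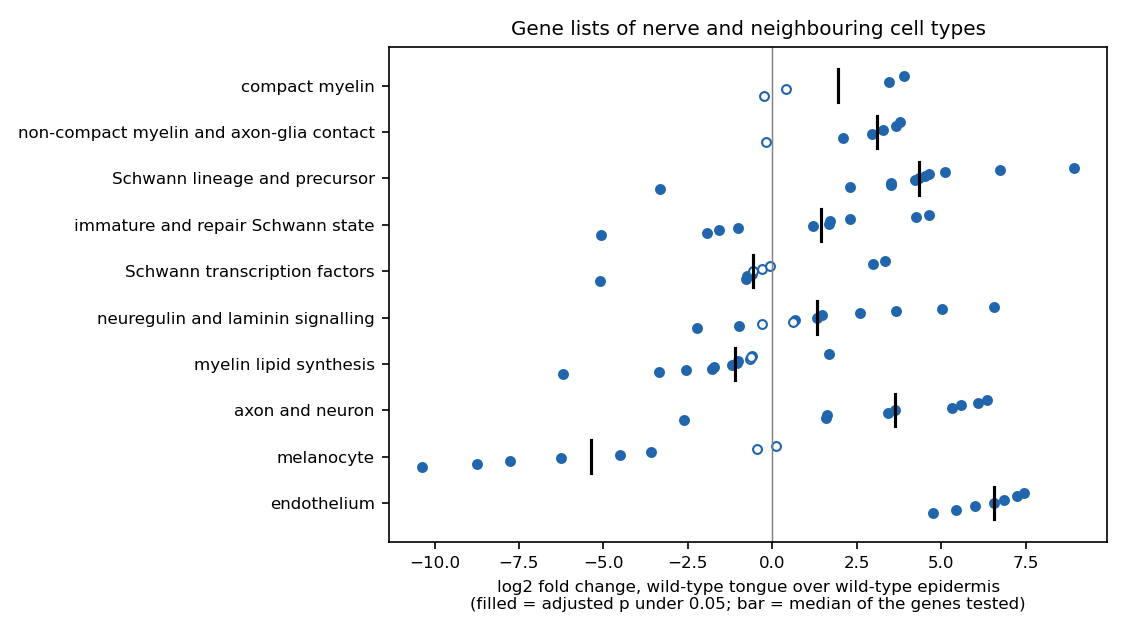
Log2 fold change, wild-type tongue over wild-type epidermis, of the tested genes of 10 lists, with filled points at an adjusted p under 0.05 (edgeR) and a bar at each median. Lineage and axon genes lie mostly right of 0 and myelin lipid enzymes mostly left. S100b, Tyr and Slc45a2 were at 0 in 1 tissue and are drawn at their fitted values, which are no bounds.

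Mag, the adhesion protein of the myelin layer that faces the axon, lies at chr7:30899176-30914873 on the minus strand. It had 2, 4, 0 and 11 counts in knockout tongue and 0, 2, 3 and 3 counts in wild-type tongue, and 1, 0, 2 and 1 counts in knockout epidermis and 4, 2 and 2 counts in wild-type epidermis. The sums were 17, 8, 4 and 8 counts. Of the 15 libraries, 3 held more than the 3 counts taken as the floor, and Mag was left out of each test by the filter on low counts. A difference was not detectable at this depth, and no fold is given. Mobp, a myelin gene of oligodendrocytes, stood as low, at 0.814 CPM or less in tongue and 0.2645 or less in epidermis.

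Prx encodes periaxin, which ties the Schwann cell membrane to the basement membrane around myelin and is also made in lens fibres and in lung endothelium. It lies at chr7:27499324-27520214 on the plus strand, and 300 of its 5579 exon bases overlap the antisense gene Gm15541, whose reads cannot be told from those of Prx without strand. It had 14.9, 5.03, 7.65 and 3.85 CPM in knockout tongue and 10.8, 6.53, 4.78 and 6.20 CPM in wild-type tongue. Epidermis held 3.76, 3.30, 2.26 and 3.17 CPM in knockouts and 5.09, 4.53 and 3.17 CPM in wild types. The first tongue library of each genotype was the highest, and the wild-type tissues overlapped. The log2 fold change, tongue over epidermis, was 1.33 in knockout pups (SE 0.39, adjusted p = 0.0111, edgeR) and 0.78 in wild-type pups (SE 0.32, adjusted p = 0.0577). Without the A32x libraries it was 0.92 in knockout pups (adjusted p = 0.0348) and 0.67 in wild-type pups (adjusted p = 0.0174). On leaving out 1 library, the wild-type difference of Prx passed in some fits only. It was 0.93 without wild-type epidermis library 1 (adjusted p = 0.0139, edgeR) and 0.94 without wild-type tongue library 3 (adjusted p = 0.0402, edgeR). It did not pass on leaving out any other library, and over the 7 such fits it ran from 0.51 to 0.94. Drp2, the partner that links periaxin to dystroglycan, was 3.03 and 2.95 log2 units higher in tongue in knockout and wild-type pups. Of 9 measured genes of non-compact myelin and axon contact, 6 were tested in each genotype. The filter on low counts left out Gjb1, Cldn19 and Ncmap. Of these 6, 5 were higher in tongue and none lower. Among them were Cnp at log2 fold changes of 3.60 and 3.67 and Cadm4 at 3.93 and 3.796. Dmd, also higher, had 338 to 553 CPM in knockout tongue and 265 to 533 in wild-type tongue. The 9 genes together summed to 409 to 635 and 340 to 613 CPM there. The part of skeletal muscle in the Dmd level was not tested. Nfasc did not pass in either genotype.

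Between knockout tongue libraries Prx varied more than each of the other genes except Mag, with a coefficient of variation of 62.9%, against 19.3% for Pmp22. Between wild-type tongue libraries the coefficient was 36.9% for Prx, 47.6% for Egr2 and 4.30% for Pmp22. Cdh5, the cadherin of endothelium, had 104, 65.1, 82.99 and 57.3 CPM in knockout tongue and 96.7, 72.04, 64.98 and 66.8 CPM in wild-type tongue. It ranked the 8 libraries as Prx did and was the gene most like Prx over them among 13395 genes (r = 0.983 over 8 libraries, 0.946 over the 6 outside the A32x range). This likeness was looked for after the Prx values were seen and is a description of libraries that share A-number ranges. The endothelial gene Pecam1 was less alike, with r of 0.811 over 8 libraries and -0.142 over 6. Scn7a, a sodium channel of Schwann cells and other glia, had 148, 46.6, 30.4 and 21.3 CPM in knockout tongue and 122.5, 46.2, 29.6 and 31.9 CPM in wild-type tongue, again with the A32x libraries far above the others. The macrophage gene Lyz2 had the same peak, at 51.25 CPM in knockout tongue library 1 and 32.1 in wild-type tongue library 1 against 6.66 to 13.6 in the other tongue libraries. Skeletal muscle genes summed to 31575 and 28637 CPM in these libraries and to 34848 CPM or more in the other tongue libraries. The part of tissue make-up in the Prx level was not tested.

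**Figure D4:**
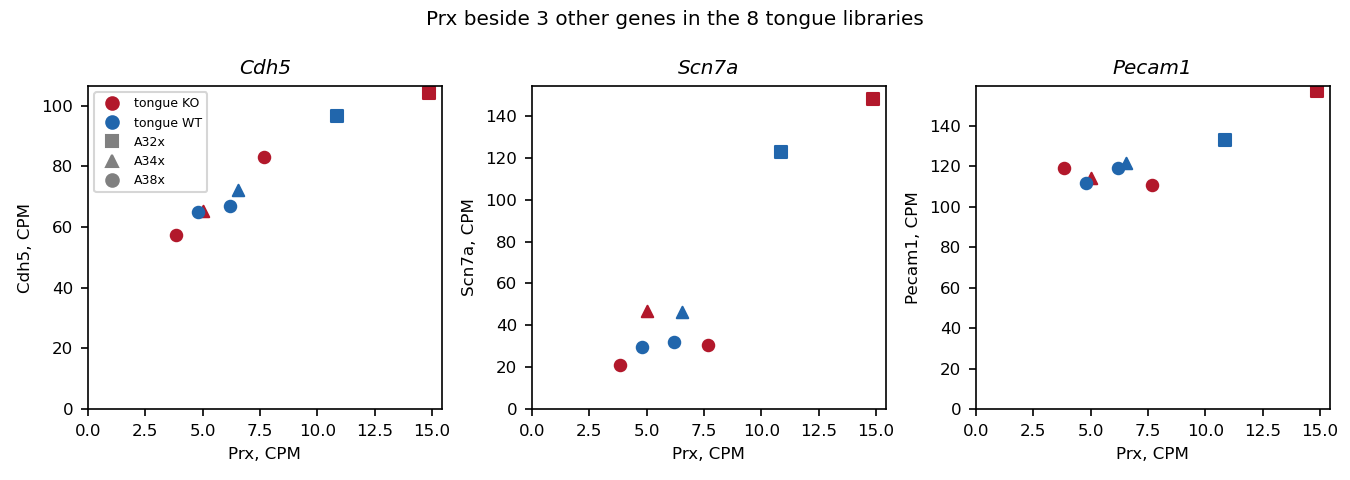
CPM of Cdh5, Scn7a and Pecam1 against CPM of Prx in the 8 tongue libraries on linear axes, with knockouts in red, wild types in blue and marker shapes for the A-number range. The A32x libraries (squares) are highest in Prx, Cdh5, Scn7a and Pecam1, and among the other 6 libraries Pecam1 lies between 111 and 121 CPM.

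The 8 genes did not vary together over the tongue libraries. Correlated with the mean of their standardized log2 levels over 8 libraries, Sox10 had r = 0.838, Erbb3 0.824, Cdh19 0.805, Pmp22 0.748, Mbp 0.572 and Mag 0.137, whereas Prx had -0.034 and Egr2 -0.0607, with each gene part of that mean. The 8 other named genes most like the mean, out of 13389, were Arid5a, Pcx, Prr14, Slc41a1, Mbd1, Cnppd1, C2cd2l and Zbtb10, led by Arid5a, with r down to 0.943. Their patterns are a description over 8 libraries with no p.

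Divided by length, as CPM per kilobase of merged exons, the order in tongue was Pmp22, Erbb3, Cdh19, Mbp and Prx, at 63.2, 13.6, 2.81, 1.90 and 1.41 in knockouts and 57.01, 11.04, 2.62, 1.70 and 1.27 in wild types. In epidermis it was Erbb3, Egr2 and Mbp, at 57.4, 5.45 and 4.01 in knockouts and 37.3, 3.55 and 3.27 in wild types, with the other 5 genes under 1. In these levels per kilobase Mbp and Prx differed by less than the SD of Prx in tongue (0.885 in knockouts and 0.469 in wild types). Egr2 and Mbp differed by less than the SD of Egr2 in wild-type epidermis (1.31). The length used for Mbp was 8469 bases, merged over 16 transcripts of the locus, and its place in the order depends on that length.

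Knockout against wild type was the comparison for which the mice were made, and none of the 8 genes passed it in either tissue. In tongue 0 of 7 tested genes passed against a background of 0.0127% (2 of 15741 genes, both lower in knockouts). In epidermis 0 of 7 passed against a background of 0% (0 of 16073 genes by edgeR, 187 at an unadjusted p under 0.05, 1 by DESeq2 and 0 by limma-voom). The median log2 fold change of the 7 genes was 0.13 in tongue and 0.29 in epidermis, against 0.009 and 0.001 over all genes. In tongue the log2 fold change, knockout over wild type, was 0.13 for Pmp22 (95% interval -0.15 to 0.41), 0.14 for Mbp (-0.19 to 0.47) and 0.08 for Cdh19 (-0.305 to 0.47). Their adjusted p was 0.939, 0.939 and 0.955 by edgeR. Sox10 was at 0.32 (-0.21 to 0.84). Erbb3 was at 0.28 (-0.002 to 0.57, adjusted p = 0.939), and its means were 81.8 ± 14.9 CPM in knockout tongue and 66.4 ± 4.75 CPM in wild-type tongue (SD, n = 4 each).

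Prx had no stable direction in tongue. Its log2 fold change, knockout over wild type, was 0.13 (-0.77 to 1.04), but -0.39 without knockout tongue library 1, -0.01 without wild-type tongue library 3 and -0.12 without the A32x libraries, and it passed in none of these fits. Egr2 had means of 1.285 ± 0.332 CPM in knockout tongue and 2.12 ± 1.01 in wild-type tongue, with a log2 fold change of -0.75 (-1.57 to 0.07, adjusted p = 0.939, edgeR). The lowest wild-type library, at 0.754 CPM, was below each knockout library, so the groups overlapped. Within the A38x tongue libraries, 2 against 2, Egr2 was at -1.11 (adjusted p = 0.261) and Erbb3 at 0.46 (adjusted p = 0.328). Compact myelin, lineage and axon genes had no member past the threshold in tongue: 0 of 4, 0 of 12 and 0 of 9. Mal had a log2 fold change of 0.10.

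In epidermis Erbb3 averaged 345 ± 121 CPM in knockouts (n = 4) and 224 ± 32.1 CPM in wild types (SD, n = 3), a log2 fold change of 0.61 (-0.02 to 1.24, adjusted p = 0.9998, edgeR). Knockout libraries 3 and 4 were above each wild-type library, and knockout libraries 1 and 2 lay within the wild-type range. Mbp was at 0.29 (-0.18 to 0.76), and its groups overlapped. Knockout libraries 3 and 4 have A-numbers in the 380s (A38x), as do wild-type libraries 2 and 3. Within the A38x libraries, 2 against 2, the log2 fold change was 0.95 for Erbb3 (adjusted p = 0.00540, edgeR) and 0.63 for Mbp (adjusted p = 0.0458). In this fit 604 of 15760 tested genes passed, 374 higher and 230 lower, and 2 of the 7 tested members. The A38x fit rests on 2 pups a group, and with the A32x libraries left out and the A34x library kept neither gene passed (adjusted p = 0.964 for each). With the replicate number as a block the values were 0.37 for Erbb3 and 0.18 for Mbp, which did not pass (adjusted p = 0.9997). Erbb2 had a log2 fold change of 0.35 and the melanocyte gene Dct of 0.49 in the fit of all 7 libraries, and neither passed. The remaining genes had log2 fold changes in epidermis of 0.34 for Pmp22 (-0.57 to 1.26), 0.26 for Cdh19 (-0.67 to 1.19), -0.45 for Prx (-1.17 to 0.28) and 0.00 for Sox10 (-0.72 to 0.72), with an adjusted p of 0.9998 each.

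Egr2 averaged 18.5 ± 1.92 CPM in knockout epidermis (n = 4) and 12.1 ± 4.46 CPM in wild-type epidermis (SD, n = 3). The lowest knockout and the highest wild-type library were both at 16.2 CPM. The log2 fold change was 0.61 (0.03 to 1.19, adjusted p = 0.9998, edgeR). Within the A38x libraries it was 0.46 (adjusted p = 0.231). Beside it, the 10 immediate early genes each had a log2 fold change above 0 with a median of 0.965, and none passed. Fos had 17.7, 124, 169.8 and 172 CPM in knockout epidermis and 13.9, 36.95 and 36.5 CPM in wild-type epidermis. Egr1 had 47.5 to 157 CPM in knockouts and 21.96 to 34.3 in wild types. The part of this group in the Egr2 value was not tested.

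**Figure D5:**
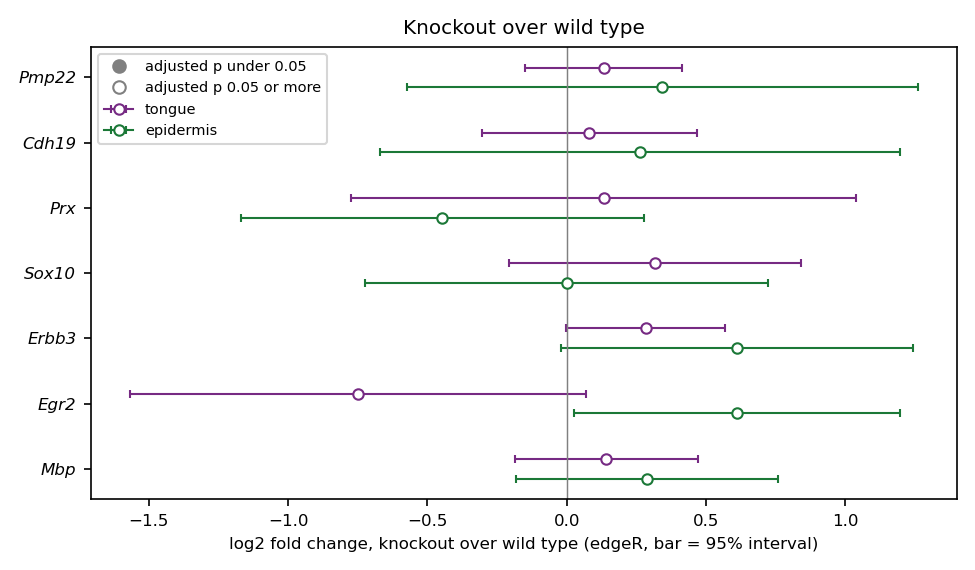
Log2 fold change, knockout over wild type, of the 7 genes that passed the low-count filter, in tongue (purple, upper point of each pair) and epidermis (green, lower point), with 95% intervals of the edgeR fit. Every point is open, since none of the 7 genes passed in either tissue.

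The difference between the tissues in the effect of the knockout was tested directly. None of the 7 genes passed, against a background of 0% (0 of 17935 genes by edgeR, 299 at an unadjusted p under 0.05, 1 by DESeq2). The widest value was that of Egr2, with a log2 difference, tongue minus epidermis, of -1.38 (95% interval -2.39 to -0.37, adjusted p = 1, edgeR). Over the alternatives tried it lay between -1.65 and -1.15 and passed in none (lowest adjusted p 0.169). For Erbb3 the difference was -0.35 (-0.98 to 0.28), for Pmp22 -0.27 (-0.99 to 0.46), for Cdh19 -0.20 (-1.01 to 0.62), for Mbp -0.17 (-0.70 to 0.36), for Sox10 0.30 (-0.54 to 1.14) and for Prx 0.55 (-0.61 to 1.70).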

How the data were processed

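RNA was read from 15 libraries of newborn mouse tongue and epidermis, the epidermis parted from dermis by EDTA and heat, per the labels' protocols. The cDNA (SMARTer V4) and library (TruSeq v2) kits were not stated to mark strand. Per the submitters' processing notes the aligner was STAR 2.5.2a and the genome build GRCm38.p3 (mm10), and DESeq2, edgeR and limma are named without versions or roles. No counter or annotation release is given in the sources used here. In 1 table the authors deposited whole read counts per gene, which were tested, and in another the same counts divided by a constant of each library (signal, as CPM of TMM-scaled libraries), used for symbols and as an alternative.

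Counts were filtered (filterByExpr, minimum count 10), TMM-scaled and tested within each comparison by edgeR 4.0.16 in R 4.3.3, with Benjamini-Hochberg adjustment over all genes tested and a threshold of 0.05, two-sided. CPM printed here use TMM over the 15 libraries, so a ratio of means can differ slightly from a fitted fold change. The 2 transgene entries were left out. DESeq2 1.42.0, limma 3.58.1 and other scalings, filters, blocks and left-out libraries were alternatives. The fits were tested on simulated data with 200 changed genes.

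The labels do not say that the libraries of a group came from separate animals beyond their A-numbers, so p-values measure the spread between these libraries. Replicates differed beyond sampling noise. Same-numbered knockout tongue and epidermis libraries share an A-number and are paired. The main fits used no block and so left this pairing out of their p-values. Replicate number and animal were used as blocks in alternative fits only. In epidermis, deviations of same-numbered knockout and wild-type libraries correlated at 0.608, 0.196 and 0.434. No such pair shares an A-number, and pair 2 joins different A-number ranges. Unlike-numbered pairs within the A38x range had 0.397, 0.283 and 0.0475. In tongue same-numbered pairs had 0.537, 0.135, -0.121 and 0.211. Between wild-type tissues same-numbered libraries share no A-number (0.0985, 0.098 and 0.113). There, tongue libraries 3 and 4 share theirs with epidermis libraries 2 and 3 (-0.018 and 0.059). Intervals and floors cover counting error or replicate spread only.

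The 8 members and 21 further gene lists (185 genes, 177 in the table) were chosen with earlier results of these data known. Named genes are the members and, from each list, up to 4 genes past the threshold with the largest change and a mean CPM of at least 1, or the 2 highest where none passed. Kit, Mitf, Cd9, Nrg1, Erbb2, Shh, Notch1, Cers2, Tfap2a, Nfasc, Gjb1, Cldn19, Ncmap, Mobp, Pecam1 in some comparisons, Egr3, Lyz2 and Scn7a were also named where a count or a library was described, after their values were seen. Some genes that the rule takes are not printed, and some myelin genes are not reported here.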

Additional observations from a re-analysis of the deposited data

Results flagged for a closer look

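Of 87 groups of 4 libraries tested for a single library far from the others, 5 had one, and chance gives about 1 in 20 groups. No member of the 8 genes was among them. The summed CPM of the Schwann lineage and precursor genes was 391.1 in knockout tongue library 1, where the other knockout tongue libraries had 246.8 to 266.5, and 375.5 in wild-type tongue library 1, where the other wild-type tongue libraries had 271.6 to 284.7. Both are A32x libraries, and Scn7a was 147.9 and 122.5 CPM of these sums. The summed CPM of skeletal muscle genes was 31574.9 in knockout tongue library 1, where the others had 49130.5 to 51856.5. Myelin lipid synthesis genes summed to 662.7 CPM in wild-type tongue library 1, where the others had 566.4 to 570.8. Compact myelin genes summed to 155.9 CPM in wild-type tongue library 4, where the others had 144.2 to 144.7.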

How the results depend on the processing

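The tissue directions of Pmp22, Cdh19, Erbb3, Egr2 and Mbp and their calls held under each alternative tried in both genotypes. Prx in wild-type tissues passed in 7 of 19 alternatives, among them DESeq2, the blocks on replicate number and A-number range and the A38x libraries alone, but not with animal as a random block, with log2 fold changes between 0.51 and 0.94. With the replicate number as a block, which is no pairing for wild-type tissues, it was 0.78 (adjusted p = 0.0452, edgeR), and the block changed no other member call. Between genotypes, the number of genes called in tongue was 4 by DESeq2 and 15 within A38x. In epidermis it was 1 by DESeq2, by a block on A-number range and in a fit of 15 libraries. It was also 1 without the A32x libraries, an alternative chosen after seeing the data. Within A38x it was 604 of 15760 tested genes, with 2 of the 7 tested members called there. For the difference between tissues it was 1 by DESeq2 and 19 within A38x, and 0 to 1 on leaving out each library, the 1 without knockout epidermis library 1. Signs turned for small values: Prx in tongue was -0.015 by limma-voom and -0.12 without the A32x libraries (-0.39 to 0.41 on leaving out each library). Sox10 in epidermis was 0.0018 without mt-Rnr1 and mt-Rnr2, 0.0199 without a low filter, 0.0198 in the A38x libraries, 0.0207 in the fit of 15 libraries, 0.0041 at a mean CPM of at least 1 and 0.0398 with the replicate block (-0.10 to 0.24 on leaving out each library). On leaving out each library, Cdh19 ran from -0.0383 to 0.22 in tongue and -0.0289 to 0.46 in epidermis, the difference between tissues from -0.45 to 0.0162 for Pmp22 and -0.43 to 0.0834 for Cdh19, and Sox10 between wild-type tissues from -0.23 to 0.17. The cause was not tested. Of 64 recomputed mean levels 30 moved by more than 1 SD, mostly without the mitochondrial RNAs, which raises every CPM. Depth limits Mag.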
